A study of Mus musculus with 6 samples.

Results

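CpG-poor CTCF regions at promoters of protein-coding genes were examined in mouse embryonic stem cells, the pluripotent cells grown from the early embryo. A region was a member when it overlapped 1000 bp either side of a transcript start of a protein-coding gene and when its sequence had a G+C content below 55% or an observed/expected CpG ratio below 0.6. The observed/expected CpG ratio compares the CpG dinucleotides found with the number that the C and G content alone would give. Composition was read in the CTCF region and not in the whole promoter, so a gene named here need not have a CpG-poor promoter. The rule found 4646 members among 57662 CTCF regions (8.06%), while 930 further regions at protein-coding promoters met neither limit and are called CpG-island-like here. The other 52086 regions lay outside protein-coding promoters. Members had a median G+C content of 48.9% and a median CpG ratio of 0.331, against 62.6% and 0.798 in CpG-island-like promoter regions.

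Chromatin bound by CTCF had been precipitated with an antibody against CTCF and sequenced (ChIP-seq) in 2 libraries of WT_CTCF and 2 libraries of MUT_CTCF cells. In both groups the endogenous CTCF carried an auxin-inducible degron and was degraded with auxin, and a vector supplied either wild-type CTCF (WT_CTCF) or the point mutant T668A, with alanine in place of a threonine that bears O-GlcNAc (MUT_CTCF). Each genotype was 1 picked clone whose introduced CTCF was close in level to the endogenous protein, so genotype and clone cannot be told apart. The 2 input libraries were not analysed here, and ChIP-seq offers no expressed markers against which to check the cell type.

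CTCF is a zinc finger DNA-binding protein that holds the anchors of chromatin loops together with cohesin, and it binds a long motif whose core has a fixed orientation. Most mammalian housekeeping promoters are CpG islands, GC-rich stretches that stay unmethylated, while CpG-poor promoters more often belong to tissue-restricted genes and can be methylated where the gene is silent. Methylation of CpGs inside the motif is known to hinder CTCF binding at many sites. O-GlcNAc is a single sugar that one enzyme, OGT, places on serine and threonine residues of nuclear proteins.

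A match to the core CTCF motif (13 bases, either strand, at most 1 mismatch) was found in 2328 of 4646 members (50.1%). Intervals of equal width 5000 bp to either side held one in 5.23% of cases, and the share was 37.0% in CpG-island-like promoter regions and 60.6% in all regions. The match without a mismatch was found in 468 members (10.1%). The centre of the core lay a median of 10.5 bp from the summit of the peaks, the position of highest signal, and within 50 bp in 91.9% of the 2328. The matches below are from the members with the highest scores (Acbd4, H2-DMa, Wrap53, Zfp384, Med4), from those whose score rose (Nbeal2, Mecom) or fell (Pitx3, Dnase2a, Cryba1) most against the other regions, from a member called only in WT_CTCF (Mrpl17) and from a keratin gene (Krt222). They were read from build mm9 on the strand of the motif. Capitals mark the 13 bases of the core and lower case the 8 bases on each side.
Acbd4: gtgggtttCCACCAGGGGGCGcgaggact
H2-DMa: ccgaccttCCACCAGGGGGCGgaggtctc
Wrap53: ctccctggCCTGCAGAGGGCGcataattt
Zfp384: gagcctgcCCAGCAGGAGGCGctgctgag
Med4: tcctttgcCCTGTAGATGGCGctagaact
Nbeal2: gtcgtctgCCGCTAGGGGGCGctcgcgct
Mecom: tacagaagCCAGAAGGGGGCGtcagatcc
Pitx3: ctccacccCCAGAAGGGGGCGcgctcacc
Dnase2a: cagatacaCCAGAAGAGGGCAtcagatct
Cryba1: tttgcataCCAGAAGAGGGCAccagatct
Krt222: cagatacaCCAGAAGAGGGCAtctgatcc
Mrpl17: agagaaacCCGGCAGGGGGCGccgagatc

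The printed windows lay at chr11:102964121-102964149 (Acbd4, + strand), chr17:34272356-34272384 (H2-DMa, + strand), chr11:69392984-69393012 (Wrap53, + strand), chr6:124980713-124980741 (Zfp384, - strand) and chr14:73909696-73909724 (Med4, + strand). Those of Nbeal2 (chr9:110537922-110537950, + strand), Mecom (chr3:29896179-29896207, - strand), Pitx3 (chr19:46211827-46211855, + strand) and Dnase2a (chr8:87431999-87432027, - strand) lay between 2 and 18.5 bp from their summits. The last 3 windows were those of Cryba1 (chr11:77535058-77535086, + strand), Krt222 (chr11:99106009-99106037, - strand) and Mrpl17 (chr7:112959762-112959790, - strand).

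Many members shared the same 13 bases. The 2328 cores were made of 433 different sequences, of which 175 occurred once. The most frequent one, CCAGAAGAGGGCA, was found in 461 members (19.8% of their cores), including Dnase2a, Cryba1 and Krt222, and made up 23.6% of the cores of all regions. Its variant CCAGAAGAGGGCG was the core of 267 members (11.5%). The flanks of the Dnase2a and Krt222 cores were also alike. Cores of this kind are known from B2 SINEs, a family of mouse retrotransposons that carry CTCF motifs. No repeat annotation was used here, so the place of these members in repeats was not tested, and reads of near-identical copies are uncertain. Members with CCAGAAGAGGGCA were called in 84.8% and 93.7% of cases in the WT_CTCF libraries against 46.0% and 42.1% in the MUT_CTCF libraries. Against members with other cores of 1 mismatch, their called share was lower by a mean of 16.4 percentage points, in 4 of 4 libraries (exact sign-flip test over libraries, two-sided, p = 0.125, the smallest that 4 libraries allow). From WT_CTCF to MUT_CTCF that gap changed by -20.6 points (exact permutation test of 2 libraries against 2, two-sided, p = 0.333, the smallest this design allows). Their scores were lower too. Among those called in all 4 libraries, the median log2 gap was -0.47 and -0.42 (WT_CTCF) and -0.59 and -0.54 (MUT_CTCF). The core compared next has no mismatch and higher scores, with WT_CTCF medians of 1255 and 1326 against 533 and 589.5. Site strength and mismatches were therefore not separated from the sequence of the core. By contrast, the 34 members with the core CCACCAGGGGGCG, shown above for Acbd4 and H2-DMa, were called in 97.1% and 100% of cases in WT_CTCF and in 94.1% and 91.2% in MUT_CTCF.

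Peaks had been called in each library separately, and each has a score given by the peak caller. The number of reads behind each list is unknown, so the values below compare calls and scores and are not amounts of bound CTCF. From spike-in normalised ChIP-seq the study reported more binding of the mutant CTCF across the genome, and its immunoblots showed more on chromatin. The calls and scores here go in the opposite direction, and the reason was not tested. The 4 lists held between 32712 and 54001 peaks, with more in each WT_CTCF than in each MUT_CTCF library. Among all regions called in 4 libraries, the library medians of the log2 score were lower in MUT_CTCF by 1.21 on average, and changes of members are therefore also given relative to the library medians.

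Fewer members had a called peak in MUT_CTCF. The regions had been joined from the peaks of these same libraries. A call in MUT_CTCF with none in WT_CTCF was found at only 13 of 4646 members (0.28%). Nearly all members were thus defined by a WT_CTCF peak, and a high called share in WT_CTCF is in part built in. All called shares, counts of regions called in WT_CTCF alone and tests on them carry this limit. A peak was called in 85.8% and 94.3% of members in the WT_CTCF libraries against 57.1% and 55.2% in the MUT_CTCF libraries. The mean was 90.1% ± 5.997 in WT_CTCF (SD, n = 2) against 56.2% ± 1.40 in MUT_CTCF (SD, n = 2). The groups did not overlap, and the difference of -33.9 percentage points exceeded the spread between replicates, but the exact two-sided permutation test cannot go below p = 0.333, the value it gave. Regions outside promoters behaved much alike, with 86.3% and 93.3% called in WT_CTCF and 58.6% and 56.5% in MUT_CTCF.

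The drop was wider at CpG-island-like promoter regions. They were called in 90.5% and 96.3% of cases in WT_CTCF and in 44.4% and 41.9% in MUT_CTCF. The called share of members minus that of CpG-island-like promoter regions was thus -4.72 and -2.05 points in the WT_CTCF libraries, while it was 12.7 and 13.2 points in the MUT_CTCF libraries. This change of 16.4 points between genotypes had p = 0.333 in the exact permutation test over libraries, the smallest possible. Members just inside the CpG limit and regions just outside it were close. At a G+C content of at least 55%, the 121 members with a CpG ratio from 0.55 to 0.6 were called in 55.4% and 56.2% of cases in the MUT_CTCF libraries, and the 97 CpG-island-like regions from 0.6 to 0.65 in 58.8% and 55.7%.

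**Figure D1:**
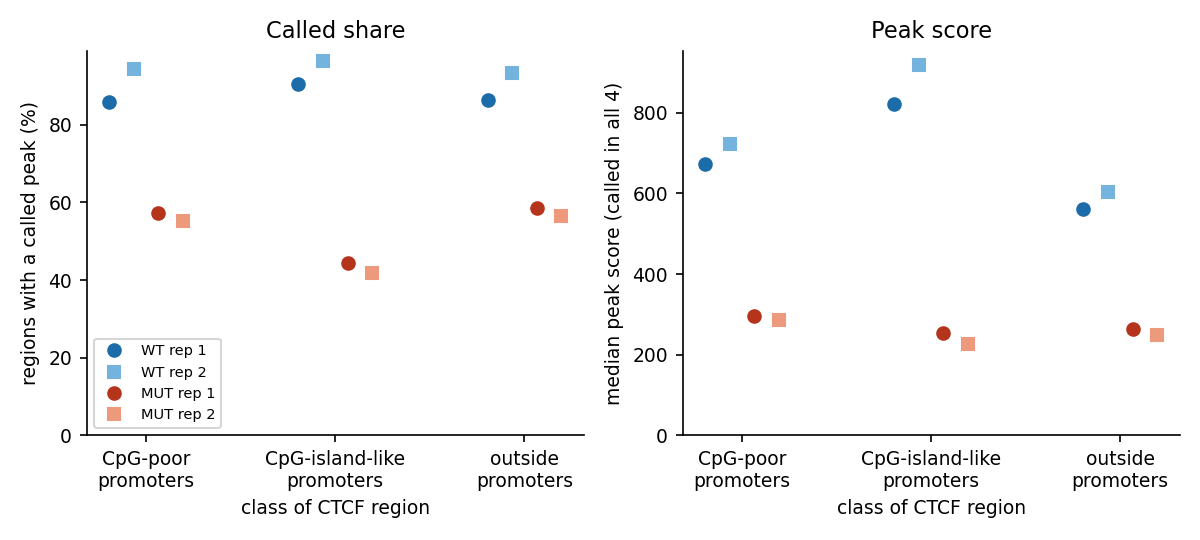
Share of regions with a called peak (left, percent) and median peak score over regions called in all 4 libraries (right, the caller's unit) for CpG-poor promoter regions, CpG-island-like promoter regions and regions outside promoters; each point is 1 library. In both MUT_CTCF libraries the CpG-poor regions, at 57.1% and 55.2%, lay above the CpG-island-like regions, at 44.4% and 41.9%, while in WT_CTCF they lay below them.

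Of the 4646 members, 2406 (51.8%) were called in all 4 libraries, beside 52.6% of all regions. A further 967 members (20.8%) had a call in each WT_CTCF library and none in MUT_CTCF, beside 19.5% of all regions, and 873 in 1 WT_CTCF library alone. Both shares were close to those of all regions. In CpG-island-like promoter regions, 374 of 930 (40.2%) were called in all 4 libraries and 382 (41.1%) in WT_CTCF alone.

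Calls made in each MUT_CTCF library and absent from WT_CTCF were rare, with 2 of 4646 members beside 0.033% of all regions. The first was upstream of Cbx2 (chr11:118883904-118884132), which encodes a Polycomb chromodomain protein, with a score of 67 in each MUT_CTCF library. The second covered an exon at the start of Il11ra1 (chr4:41707284-41707550), the interleukin 11 receptor alpha chain, with scores of 48 and 76. All these scores were far below the member medians of 296 and 285.5 in the MUT_CTCF libraries, which were taken over members called in all 4.

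The 6 strongest members called in WT_CTCF alone had scores in the range of the members called throughout. At Mrpl17 (chr7:112959571-112960113), a mitochondrial ribosomal protein gene, the scores were 796 and 843 in WT_CTCF, with no call in MUT_CTCF. At Ovca2 (chr11:74992418-74992824), a serine hydrolase gene, they were 641 and 803. At Fkbp2 (chr19:7054014-7054533), which encodes a prolyl isomerase of the endoplasmic reticulum, they were 616 and 800. These values were close to or above the member medians of 673 and 723 over members called in all 4. Psmd11 (chr11:80241567-80242124), a subunit of the proteasome lid, had scores of 519 and 559. Dhx16 (chr17:36016314-36016760), a helicase of the spliceosome, had 489 and 534. The predicted gene Gm10800 (chr2:98507257-98507449), ahead of these 2 by score, had 622 and 747. Its mean signal in the authors' table, 5020, was the highest of all members, against a member median of 118.5, although no peak was called there in MUT_CTCF. Its peak was 193 bp wide in WT_CTCF replicate 1, and the region held no core match within 2 mismatches, and the effect of repeated sequence there was not tested.

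In the 2406 members called in all 4 libraries, scores were lower in MUT_CTCF. The median scores were 673 and 723 in the WT_CTCF libraries against 296 and 285.5 in the MUT_CTCF libraries. The median log2 difference over members was -1.21, a ratio of 0.431, and the library medians did not overlap between genotypes (p = 0.333 in the exact permutation test, the smallest possible). In limma, fitted to all 30317 regions called in 4 libraries with Benjamini-Hochberg adjustment, 2187 of the 2406 members (90.9%) were lower at an adjusted p below 0.05, beside 90.8% of all regions, and 1 was higher, beside 0.0396%. Without WT_CTCF replicate 1 the lower members numbered 1148. Without WT_CTCF replicate 2 limma called 0 of them, although 1567 were lower at an unadjusted p below 0.05, and the smallest adjusted p was 0.0528.

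Relative to the library medians, similar numbers of members were higher and lower. The limma fit to the centred scores gave 317 lower members (13.2%), beside 8.49% of all regions, and 306 higher members (12.7%), beside 10.9%. The median centred difference of members was -0.00, and the middle 50% of members lay between -0.40 and 0.33. In CpG-island-like promoter regions, 191 of 374 were lower and 19 higher, with a median of -0.64. The difference between the classes in median log2 score changed by 0.59 from WT_CTCF to MUT_CTCF (exact permutation test over libraries, p = 0.333, the smallest possible). When limma was fitted without its intensity trend, the centred calls fell to 118 lower and 62 higher members. All 623 called members kept their direction there, and 174 stayed called. Without WT_CTCF replicate 1 or 2 there were 121 or 103 lower and 173 or 145 higher members.

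**Figure D2:**
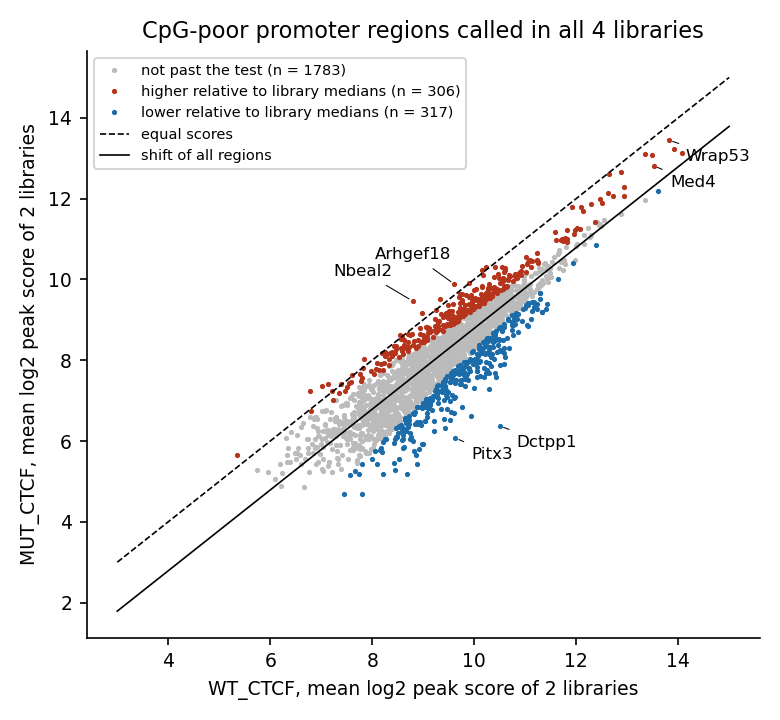
Mean log2 peak score in MUT_CTCF (vertical) against WT_CTCF (horizontal), 2 libraries each, for the 2406 members called in all 4 libraries; the dashed line marks equal scores and the solid line the mean shift of the library medians of all regions, -1.21. Most members lie below the dashed line, 306 lie above the solid line past the centred test and 317 below it.

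The 6 members with the highest scores kept high scores in MUT_CTCF. Wrap53 (chr11:69392624-69393994), which encodes a protein that guides telomerase to Cajal bodies, had scores of 13857 and 14956 in WT_CTCF and 11205 and 11154 in MUT_CTCF. The Acbd4 region (chr11:102963436-102964553), at an acyl-CoA-binding protein gene, had 16447 and 18357 against 9012 and 8905. H2-DMa (chr17:34271902-34272822), a chaperone chain for peptide loading of MHC class II, had 15785 and 15127 against 9824 and 9252. In each of them both MUT_CTCF scores lay below both WT_CTCF scores. At Zfp384 (chr6:124980326-124981188), a zinc finger transcription factor gene, the scores were 11253 and 11760 against 8475 and 8779. Exd1 (chr2:119372382-119373239), a gene of the piRNA pathway, had 10396 and 10477 against 8575 and 9155. Med4 (chr14:73909295-73910114), a Mediator subunit gene, had 11110 and 12365 against 7373 and 7024. All 6 overlapped an exon and had a CpG ratio between 0.274 and 0.740. The windows of Wrap53, Acbd4 and Exd1 each held starts of 2 genes, and the name given is that of the nearest start.

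On the scale of the deposited scores these 6 fell, with log2 differences between -0.24 (Exd1, SE 0.08, adjusted p = 0.0129) and -0.96 (Acbd4, SE 0.08, adjusted p = 1.14e-05). Relative to the library medians they rose, by between 0.26 (Acbd4, SE 0.06, adjusted p = 0.00115) and 0.98 (Exd1, SE 0.07, adjusted p = 1.54e-18). Without the intensity trend, which gives strong peaks a small variance, the centred calls of Wrap53 (adjusted p = 0.0502), Zfp384 (0.0575), Med4 (0.138), H2-DMa (0.144) and Acbd4 (0.403) were lost. That of Acbd4 was also lost without WT_CTCF replicate 1 (adjusted p = 0.112) or replicate 2 (0.0646).

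Among the 6 largest rises relative to the library medians, Nbeal2 was the one that also passed the test on the deposited scale. At Nbeal2 (chr9:110537572-110538304), a gene needed for platelet alpha-granules, the scores were 401 and 491 in WT_CTCF and 700 and 713 in MUT_CTCF. The groups did not overlap. Its log2 score was higher by 0.67 (SE 0.19, adjusted p = 0.00661) as deposited and by 1.88 (SE 0.20, adjusted p = 3.76e-11) relative to the library medians. The deposited call was lost when any 1 of the 4 libraries was left out, and the centred call was not. Its summit lay 347 bp upstream of the transcript start, and the peak was narrower in MUT_CTCF, with widths of 401 and 390 bp against 622 and 682 bp.

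Arhgef18 (chr8:3450543-3451186), a guanine nucleotide exchange factor gene, had scores of 731 and 836 in WT_CTCF and 953 and 936 in MUT_CTCF. Its centred difference was 1.48 (SE 0.16, adjusted p = 1.29e-10), while its deposited difference of 0.27 did not pass (adjusted p = 0.117). Grin2b (chr6:136123633-136123960), the NMDA receptor subunit gene, had 129 and 151 against 176 and 163, again without overlap, with a centred difference of 1.49 (adjusted p = 0.00136). Mecom (chr3:29895954-29896395), a zinc finger factor of blood stem cells, had 88 and 138 against 152 and 152, with a centred difference of 1.68. Fer (chr17:64287329-64287739), a tyrosine kinase gene, had 145 and 114 against 129 and 212, with a centred difference of 1.58, and its groups overlapped. Gna14 (chr19:16509949-16510204), a G protein alpha subunit gene, had 29 and 58 against 44 and 58, with a centred difference of 1.51, and also overlapped. The centred calls of Mecom (without WT_CTCF replicate 1, adjusted p = 0.0566), Fer (without WT_CTCF replicate 2, 0.0648) and Gna14 (without any of the 4 libraries, 0.07 to 0.38) did not hold when libraries were left out.

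The largest fall was at Dctpp1 (chr7:134404167-134404875), which encodes a dCTP pyrophosphatase that cleans the nucleotide pool. Its scores were 1411 and 1483 in WT_CTCF and 90 and 76 in MUT_CTCF, and its peak narrowed from 665 and 707 bp to 258 and 209 bp. The deposited log2 score fell by 4.13 (SE 0.23, adjusted p = 5.46e-06), and relative to the library medians it fell by 2.92 (SE 0.25, adjusted p = 1.22e-14). The region held a core match with 2 mismatches and had a CpG ratio of 0.720.

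The next falls came at genes of varied function. Pitx3 (chr19:46211633-46212222), a homeobox gene of lens and midbrain dopamine neurons, had scores of 682 and 914 in WT_CTCF and 66 and 69 in MUT_CTCF. Dnase2a (chr8:87431717-87432414), a lysosomal nuclease gene, had 368 and 457 against 39 and 34. Rps26 (chr10:128063619-128064279), a ribosomal protein gene, had 487 and 456 against 48 and 39. In each, the MUT_CTCF scores were about an order of magnitude below those of WT_CTCF. Fbxo47 (chr11:97745045-97746328), an F-box gene of meiosis, had 986 and 963 against 123 and 78. Cryba1 (chr11:77534603-77535327), a lens crystallin gene, had 471 and 456 against 58 and 44. Relative to the library medians, the differences of these 5 ranged from -1.99 (Cryba1, adjusted p = 2.48e-05) to -2.34 (Pitx3, adjusted p = 1.52e-08). On the centred scale no setting tried changed the direction or the call of the 6 falls, nor those of Nbeal2, Arhgef18 and Grin2b. The core match in the Fbxo47 region lay 640 bp from the summit, so it was not at the peak.

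Peaks at members were narrower in MUT_CTCF. Over all called members the median width was 460 and 469 bp in the WT_CTCF libraries against 382 and 380 bp in the MUT_CTCF libraries. Over members called in all 4 libraries the widths were 555 and 587 bp against 402 and 392 bp, a difference of -174 bp. Both differences exceeded the spread between replicates, with p = 0.333 in the exact permutation test, the smallest possible. CpG-island-like promoter peaks called in all 4 libraries went from 529 and 549 bp to 290.5 and 294 bp. The replicate summits of a member called in all 4 lay a median of 6 bp apart in WT_CTCF and 7 bp in MUT_CTCF. The mean summits of the genotypes lay a median of 9.5 bp apart, more than the replicates did, and a shift was not tested.

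The called share of members followed the motif. Members with a core free of mismatches were called in 97.9% and 98.7% of cases in the WT_CTCF libraries against 89.3% and 88.2% in the MUT_CTCF libraries. With 3 or more mismatches the shares were 66.9% and 86.5% in WT_CTCF and 28.6% and 25.8% in MUT_CTCF. The gap between these groups of members was 31.0 and 12.2 points in WT_CTCF and 60.7 and 62.4 points in MUT_CTCF, a change of 39.99 points (exact permutation test over libraries, p = 0.333, the smallest possible). Among members called in all 4 libraries, the median centred difference was 0.05 with no mismatch and -0.06 with 3 or more. These were 409 of 468 and 231 of 988 members, so the 2 values cover unlike shares of their groups. The authors' mean also differed, with medians of 293 and 43.5 over all members of these groups, so motif and site strength were not separated. A core was present in 63.0% of members called in all 4 libraries and in 40.7% of those called in WT_CTCF alone. At equal motif quality, CpG-island-like promoter regions were called less in MUT_CTCF, with 72.3% and 70.8% for cores free of mismatches.

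**Figure D3:**
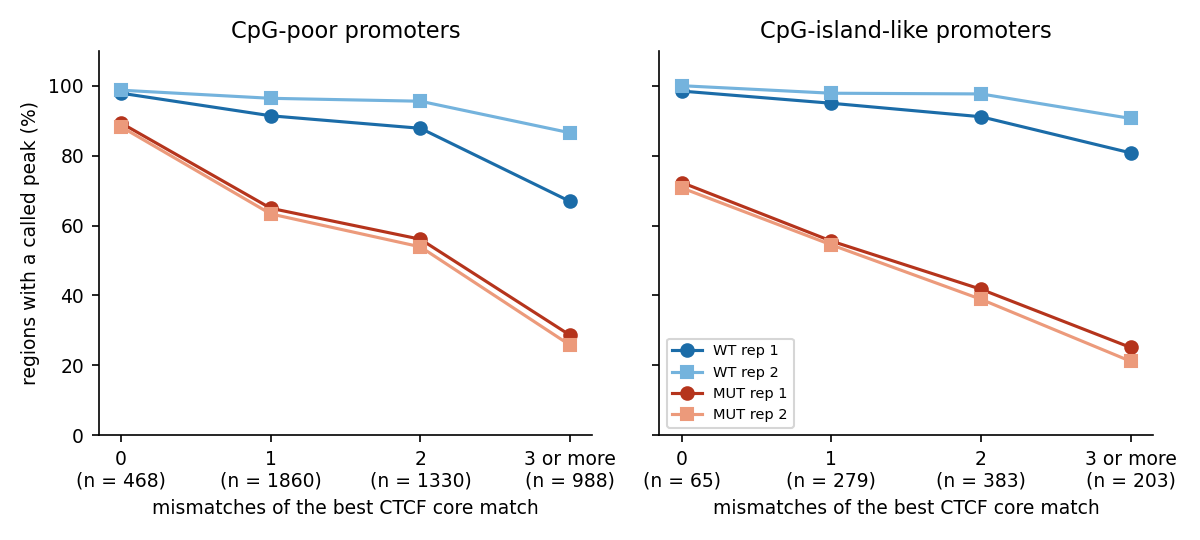
Share of regions with a called peak (percent) by the number of mismatches in the best core match, for CpG-poor (left) and CpG-island-like (right) promoter regions; each line is 1 library and n is the number of regions. In MUT_CTCF the share in CpG-poor regions goes from 89.3% and 88.2% without a mismatch to 28.6% and 25.8% with 3 or more.

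A CpG lay within the core in 1005 of the 2328 members with a match (43.2%). These members were called more often, with 78.4% and 77.8% in the MUT_CTCF libraries against 63.3% and 61.1% for cores without a CpG, and with 96.1% and 98.2% against 90.1% and 95.8% in WT_CTCF. The gap held in 4 of 4 libraries (exact sign-flip test, two-sided, p = 0.125, the smallest possible). The members with a CpG also had a higher mean signal in the authors' table, with a median of 243 against 135.5, so the strength of the site moved with the CpG, and its part in the gap was not tested. DNA methylation was not measured in the libraries used here. The core lay on the same strand as the gene in 1245 of 2328 members (53.5%), and called shares differed little by orientation, with 68.7% and 67.2% on the gene strand and 71.2% and 69.6% on the opposite strand in MUT_CTCF.

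Among members the scores differed with CpG content. In the quintile of members with the highest CpG ratio (above 0.533), the median scores of those called in all 4 libraries were 867 and 953.5 in WT_CTCF and 335 and 317 in MUT_CTCF. In the quintile with the lowest ratio (up to 0.179) they were 520 and 553 against 250 and 237. The highest quintile was therefore ahead by 0.74 and 0.79 on the log2 scale in WT_CTCF and by 0.42 in each MUT_CTCF library, a change of -0.34 (exact permutation test, p = 0.333, the smallest possible). Relative to the library medians, 121 of 474 members of the highest quintile were lower (25.5%) and 51 higher (10.8%). In the lowest quintile, 30 of 412 were lower (7.28%) and 54 higher (13.1%), near the 8.49% and 10.9% of all regions. A core match became rarer along the same order, from 58.9% in the lowest to 34.2% in the highest quintile. Called shares did not follow this order, as the 3rd quintile had the highest in MUT_CTCF, 62.6% and 59.1%. The authors' mean differed as well, with medians of 158.5 in the highest and 74.5 in the lowest quintile, over all their members. CpG content, motif and site strength were therefore not separated.

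**Figure D4:**
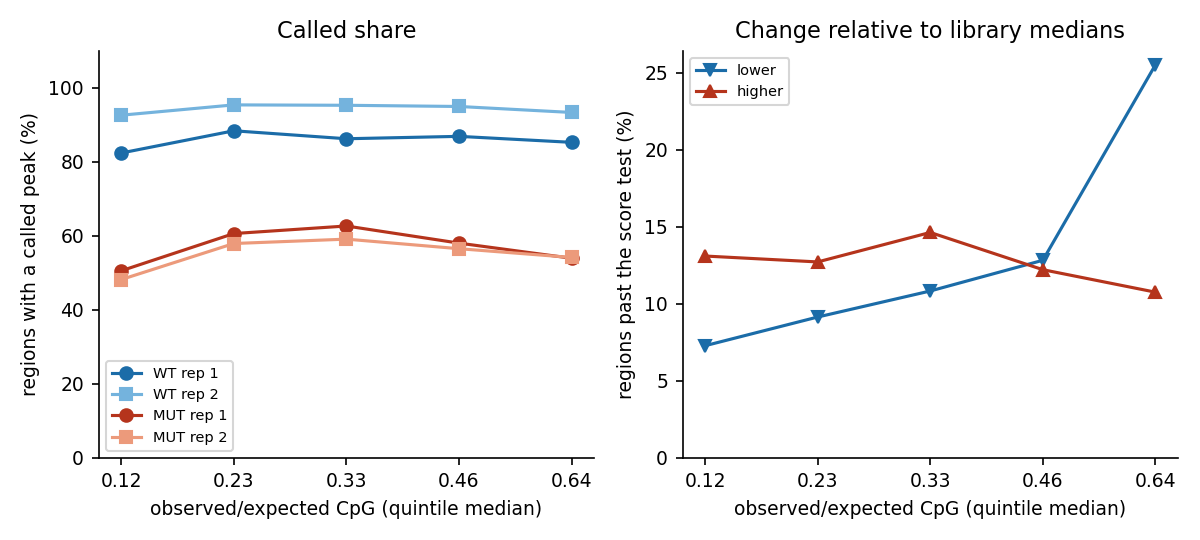
Share of members with a called peak (left, percent, 1 line per library) and share of members called in all 4 libraries that were lower or higher relative to the library medians (right, percent), by quintile of the observed/expected CpG ratio. The lower share goes from 7.28% in the lowest to 25.5% in the highest quintile, while the higher share lies between 10.8% and 14.6%. Of all regions, 8.49% were lower and 10.9% higher.

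The 3 ways to meet the rule gave members of unlike kinds. Both limits were met by 3328 members, with a median centred difference of 0.02. The 751 members with a low CpG ratio at a G+C content of at least 55% had 0.07. The 567 members with a G+C content below 55% but a CpG ratio of at least 0.6 had -0.22. They also had the lowest share of core matches, 32.5%. Of their 282 called in all 4, 81 were lower (28.7%) and 27 higher (9.57%) on the centred scale, beside 8.49% and 10.9% of all regions.

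CTCF summits at members were spread over the promoter window. Within 100 bp of the transcript start lay the summits of 14.0% of members and of 45.3% of CpG-island-like promoter regions. In the peaks of each library taken alone the share at members was between 14.1% and 14.5%, and that at CpG-island-like regions between 43.3% and 46.4% (lower at members in 4 of 4 libraries, exact sign-flip test, p = 0.125, the smallest possible). The rule reads composition in the region itself, so a region on a CpG island at a start tends to fall outside the members. This contrast and its test are therefore in part built in. More than 500 bp upstream lay 1395 members and more than 500 bp downstream 995. The 1091 members with a summit 100 to 500 bp upstream had a median centred difference of -0.15. Among their 532 called in all 4, 108 were lower (20.3%) and 55 higher (10.3%), beside 8.49% and 10.9% of all regions. The 514 members 100 to 500 bp downstream had the lowest called shares in MUT_CTCF, 49.0% and 48.4%, against 58.9% and 56.3% for those farther downstream.

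**Figure D5:**
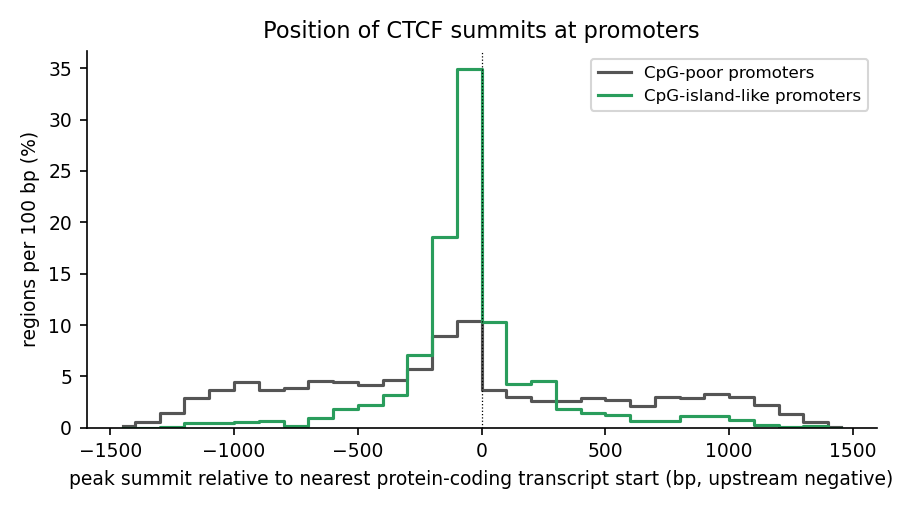
Distribution of peak summits around the nearest protein-coding transcript start (horizontal, bp, upstream negative) in bins of 100 bp, as percent of the 4646 CpG-poor (grey) and 930 CpG-island-like (green) promoter regions. The CpG-island-like regions peak just upstream of the start, with 45.3% within 100 bp, while 14.0% of the CpG-poor regions lie there. Class was set by the sequence of the region itself, so the contrast is in part built in.

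Of the members, 2117 (45.6%) touched an exon of a protein-coding gene, 1314 (28.3%) lay in introns only and 1215 (26.2%) lay outside protein-coding genes. Those at exons were called in all 4 libraries in 60.4% of cases, against 44.0% in introns and 45.2% outside genes. In CpG-island-like promoter regions the shares were 43.7% at exons, 17.8% in introns and 29.2% outside genes. A wider region touches an exon more readily, and width and site strength were not compared between these groups. A TATA box, searched as TATAAA on the gene strand from 40 to 20 bp before the transcript start, was present at 41 members (0.882%), beside 0.968% of CpG-island-like promoter regions and 1.19% of the 69978 protein-coding transcript starts. More than 1 gene had a start in the window of 241 members (5.19%). Chromosome X held 88 members (1.89%), beside 2.37% of all regions.

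The members were named by the nearest protein-coding transcript start, which gave 3957 genes, of which 3392 had 1 member. Families were formed by the start of the gene symbol alone, so in any of them a gene can match without the function of its list. Their counts are set beside those of all members, of which 51.8% were called in all 4 libraries and 20.8% in WT_CTCF alone. Among members called in all 4 libraries, 13.2% were lower and 12.7% higher relative to the library medians, beside 8.49% and 10.9% of all regions.

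Of the 9 families, cell adhesion genes had the highest share called in all 4 libraries. Of their 68 members, 56 (82.4%) were called in all 4 libraries and 7 in WT_CTCF alone. Of these 68, 38 lay at protocadherin genes, a split made after the values were seen, and 36 of the 38 were called in all 4 libraries, against 20 of the other 30. Clustered protocadherins are cell surface proteins of neurons, and many of their alternative promoters carry a CTCF site that takes part in promoter choice. The 9 members named for Pcdha genes and the 6 named for Pcdhgc5 were called in all 4 libraries, as were 19 of the 20 at Pcdhb genes, each of which had 1 member. The median scores of the 19 were 586 and 741 in WT_CTCF and 225 and 237 in MUT_CTCF. A core match within 1 mismatch was found in 4 of the 38, all 4 at Pcdha genes.

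The highest protocadherin score was in a region named for Pcdhgc5 (chr18:37925123-37925840), with 2561 and 2582 in WT_CTCF and 596 and 583 in MUT_CTCF. It fell by 0.91 relative to the library medians in limma (SE 0.14, adjusted p = 1.06e-06). The 8 members named for Pcdha11 had scores from 305 to 974 in WT_CTCF but 58 to 401 in MUT_CTCF. Relative to the library medians, 7 of the 36 protocadherin members called in all 4 were lower and 2 higher. The strongest other adhesion member was Itgbl1 (chr14:124060137-124060965), an integrin-related gene, with 5573 and 5112 against 1949 and 1773.

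Ion channel and transmitter receptor genes had 66 members, 40 of them called in all 4 libraries and 10 in WT_CTCF alone. Relative to the library medians, 3 of the 40 were lower and 11 higher, beside 8.49% lower and 10.9% higher of all regions, with a median of 0.27. Cacnb3 (chr15:98461700-98462518), a calcium channel beta subunit gene, was the strongest, with 4204 and 4440 in WT_CTCF and 2430 and 2415 in MUT_CTCF. Scnn1g (chr7:128877498-128878173), the gamma subunit gene of the epithelial sodium channel, had 1946 and 1797 against 835 and 860. Immune receptor, cytokine and effector genes had 49 members, of which 20 (40.8%) were called in all 4 and 12 in WT_CTCF alone. After H2-DMa the strongest was Cd300lg (chr11:101901193-101902519), an endothelial receptor gene, with 3282 and 3496 against 2122 and 1985. None of these 20 was lower relative to the library medians and 4 were higher, beside 8.49% and 10.9% of all regions. These are counts of a few regions.

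Liver and drug metabolism genes had 45 members, of which 24 were called in all 4 libraries. Each of the 24 had a lower deposited score and none moved past the centred test, with a median of -0.11. The organic anion transporter genes Slco4a1 (chr2:180207060-180208249; 1991 and 2012 against 624 and 804) and Slco5a1 (chr1:12980085-12980706; 1608 and 1858 against 809 and 734) were the strongest. The muscle contraction list, which takes in all symbols that start with Myo, had 31 members, 16 of them called in all 4. The strongest were Myo15b (chr11:115742130-115742843), a myosin gene, with 1778 and 1433 against 921 and 905, and Tnnt1 (chr7:4464613-4465474), slow skeletal troponin T, with 1407 and 1285 against 882 and 930. Both were higher relative to the library medians (Myo15b 0.41, adjusted p = 0.0394; Tnnt1 0.64, adjusted p = 0.00100), and both lost this call without WT_CTCF replicate 2 (adjusted p = 0.63 and 0.074).

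Developmental transcription factor genes had 26 members, of which 17 (65.4%) were called in all 4 libraries and 2 in WT_CTCF alone. Klf3 (chr5:65204564-65205285), a zinc finger repressor gene, had 1609 and 1772 against 885 and 802. Tbx6 (chr7:133923369-133924095), a T-box gene of the paraxial mesoderm, had 1293 and 1529 in WT_CTCF, and its mean in MUT_CTCF was 0.488 of the mean there. Neither differed past the test relative to the library medians (adjusted p = 0.319 and 0.445). In the germline and early embryo list, 13 of 30 members were called in all 4 and 11 (36.7%) in WT_CTCF alone. Its strongest members carry a matching symbol without the list's function, as Ddx47 (chr6:134961157-134961891) is an RNA helicase of ribosome production and Tex261 (chr6:83725696-83726587) acts in transport from the endoplasmic reticulum. Ddx47 had 4280 and 4526 against 3548 and 3589, while Tex261 had 2371 and 2650 against 709 and 765.

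Sensory receptor and keratin families had few members. Chemosensory receptor genes had 11, of which 5 were called in all 4 libraries and 3 in WT_CTCF alone. Olfr1358 (chr10:77982940-77983993), an olfactory receptor gene, had 882 and 1067 against 326 and 325, and Olfr1368 (chr13:21234242-21234735) had 520 and 488 against 86 and 263. Keratin and epidermal barrier genes had 4 members, each with a core match, and 1 was called in all 4, Krt222 (chr11:99105621-99106355), with 536 and 570 against 176 and 187. With so few members, these shares differ from those of all members by a handful of regions.

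Several members were named for the same gene. Of the 3957 genes, 89 had 3 or more members and 7 had 5 or more. Plec, which encodes the cytoskeletal linker plectin, had 6, of which 4 were called in all 4 libraries, with scores from 87 to 3907 in WT_CTCF but 51 to 2138 in MUT_CTCF. Sept9, a septin gene, had 5 with scores up to 5732 in WT_CTCF and 4312 in MUT_CTCF. Tapbp, the tapasin gene of MHC class I loading, had 5, of which 3 were called in all 4 and 2 in WT_CTCF alone. The members of each of these 3 genes thus differed among themselves in whether they were called in MUT_CTCF. Those named for Pcdha11 (chr18:37089443-37249858) and Pcdhgc5 (chr18:37833557-37925840) were called throughout. Over such long spans the symbol is the annotation's label for many starts, and it does not assign a member to that 1 protocadherin.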

How the data were processed

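CTCF ChIP-seq peak lists of 2 WT_CTCF and 2 MUT_CTCF libraries were used; groups and replicate numbers come from the sample titles. Per the submitters' notes and the study's methods, the authors trimmed reads with Trim Galore 0.4.4, aligned them with Bowtie2 2.3.4.1 to mm9, derived scale factors from Drosophila spike-in chromatin, and called peaks per library with MACS2 2.1.1.20160309 on tracks multiplied by these factors. The deposited lists give a score per peak, set by the caller, whose definition and cutoff are not given in the sources used here. Summit offsets were deposited in bp. The authors joined the peaks into 57662 regions, counted reads with bedtools multicov and ran DESeq2 1.38.0. From that deposited table the regions and the mean signal over the 4 libraries (the authors' mean) were used. Its 5 columns with the authors' comparison (log2 fold change, standard error, Wald score, p-value and adjusted p-value) were not used. A lower score is therefore not a lower scaled read count, and the 2 were not compared here. No per-sample column was left over (0).

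Promoters were taken from GENCODE vM1 (protein-coding transcripts, mm9). A region's score was the highest of its peaks, and a region was called when a peak lay in it (at least 1 bp). Log2 scores of the 30317 regions called in all 4 libraries were fitted with limma 3.58.1 (R 4.3.3, intensity trend, no pseudocount), as deposited and after subtraction of each library's median, and p-values were adjusted by the Benjamini-Hochberg method over all of them. The fit was tested on simulated data with the same SD for all regions, which does not test the intensity trend. Library values were compared with exact two-sided permutation tests (2 against 2) or sign-flip tests over 4 libraries, since regions are not replicates. The replicates are described as biological, and the p-values measure the spread between them, within 1 clone per genotype. Named members were the 6 with the highest mean log2 score, the 6 with the largest rise and the 6 with the largest fall relative to the library medians, up to 4 called in MUT_CTCF alone, the 6 strongest called in WT_CTCF alone, and the 2 strongest of each of 9 symbol families. The members and lists were chosen with earlier results of these data known. The motif was the core CTCF consensus, on both strands. Read depth is unknown, so no counting intervals are given. Replicate numbers did not pair the libraries (r = -0.00 between genotypes for the deviations of 30317 regions). Python 3.11.15, numpy 2.4.6 and pandas 2.3.3 were used.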

Additional observations from a re-analysis of the deposited data

How the results depend on the processing

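The called share of members and its difference from CpG-island-like regions kept their direction with stricter scores and 50% coverage of the region. These 2 and the median log2 score differences kept it with windows of 500 and 2000 bp and both composition limits. The median log2 difference of members also kept it with summed scores and a mean signal of at least 50, while centring removes the shift and leaves -0.00. All of these and the peak width kept it with each library left out and in the replicate block. Their exact tests cannot pass 0.05. Centring on the library medians changed the score calls from 2187 lower and 1 higher to 317 and 306. On the centred scale, where the alternatives were added after the data were seen, the calls were 118 lower and 62 higher without the intensity trend and 178 lower and 184 higher at an adjusted p below 0.01. With each library left out, lower members ranged from 0 to 1870 and higher members were 0 throughout as deposited, while the centred counts ranged from 103 to 351 lower and from 145 to 312 higher. The 0 arose without WT_CTCF replicate 2, where 1567 members were lower at an unadjusted p below 0.05 in limma. Without a group's other library, the lone sample is assumed to vary like the other group. With replicate number as a block (replicate block), limma called 2201 lower and 1 higher members as deposited and 321 and 315 when centred, and the numbers only name the samples. Of 238 alternative values of 34 named members, 26 lost a centred call, 2 gained one and 2 changed sign without a call on either side. With each library left out, Olfr1368 (-0.53) ranged from -1.38 to 0.31 and turned without MUT_CTCF replicate 1, and Scnn1g (0.07) ranged from -0.0495 to 0.19 and turned without WT_CTCF replicate 2. A core match was found in 10.1% of members with no mismatch and in 78.7% with at most 2, against 24.1% in the flanking intervals. The unknown read depth limits the reading of calls in weak regions. Called shares are also limited by regions that were joined from the same peaks, nearly all with a WT_CTCF call.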
